A study of Arabidopsis thaliana with 24 samples.

Results

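Gene expression in root meristems of Arabidopsis thaliana after 3 h on dexamethasone (DEX) was compared with that at 0 h, in 6 of the 24 arrays of a time course. The 6 arrays were chosen by their titles, with 3 at 3 h and 3 at 0 h, and the other 18 arrays covered 0.5, 1, 2, 4, 5 and 6 h with 3 arrays each. All seedlings were Col-0, were 4 days old at transfer and carried pRPS5A::TMO5:GR together with pRPS5A::LHW:GR. The 0 h seedlings therefore held the same constructs and differed in their time on medium with the steroid. Arrays of seedlings transferred to medium without DEX, or lacking the constructs, were not analysed here, so the steroid, the transfer and the elapsed time cannot be told apart. Whether the 3 repeats were grown separately is not stated in the labels, so the p-values cover the differences between these arrays and no more.

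TMO5 and LHW are basic helix-loop-helix (bHLH) transcription factors that act as a pair in young vascular cells of the root. The pair switches on LONELY GUY genes for cytokinin synthesis and drives the oriented divisions that widen the vascular cylinder. A protein fused to the hormone-binding domain of the glucocorticoid receptor (GR) is held outside the nucleus until DEX is added. The RPS5A promoter is active in dividing cells in general, so both factors were supplied to meristem cells outside the vascular tissue too. Targets bound directly by such a pair can respond within an hour or so, and later times add genes that respond to the products of the first ones. In whole meristems, fewer cells of a type and less RNA per cell cannot be told apart.

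The values were log2 expression values per gene for 16552 genes, and a change is a difference of log2 means, so that a change of 1 is a doubling. A gene was called when limma gave a Benjamini-Hochberg adjusted p under 0.05 over all genes. LHW (AT2G27230) read 7.33 ± 0.13 (SD, n = 3) at 0 h and 7.19 ± 0.12 at 3 h, a change of -0.14 with an adjusted p of 0.549. LHW reads the transcript, which DEX does not act on directly, and so does not check the labels, and TMO5 was not analysed here. DOF2.1 (AT2G28510), the transcription factor gene in the title of the series, read 6.01, 6.48 and 6.47 on the 0 h arrays and 7.54, 7.27 and 7.63 on the 3 h arrays. All its 3 h arrays lay above all its 0 h arrays. Its rise of 1.16 ± 0.15 (SE) had an adjusted p of 0.000149, and 3 h lay 0.05 above 2 h, with an adjusted p of 0.949.

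Array 3 stood apart at both times. On the first principal component, which held 18.8% of the variance, the 0 h arrays lay at -27.2, -21.5 and -5.16 and the 3 h arrays at 8.17, 7.69 and 17.6. Array 3 of 3 h lay furthest along it of all 24 arrays, while those of 6 h lay between 11 and 13.8. Array 3 of 0 h was thus the nearest of the 0 h arrays to the treated ones. At 0.5, 1 and 2 h array 3 was also the furthest along of its time, at -5.49, -4.01 and 5.87. The shift therefore went with the repeat number at 0 to 3 h, and the main fit does not model it. Residual SDs were 0.242 to 0.263 at 0 h and 0.201 to 0.211 at 3 h, so the spread shared by all times understates the error at 0 h.

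At 3 h 386 genes rose and 193 fell against 0 h. The called genes were 3.5% of those tested, with 2.33% rising and 1.17% falling. Of the 579 called genes, 566 had 3 h arrays that did not overlap the 0 h arrays, a condition that 19.3% of all genes met (9.27% higher and 10.1% lower). Only 59 rises and 23 falls reached a change of 1. Rises made up 66.7% of the calls as deposited and 62.6% (353 rises and 211 falls) after a second quantile normalization. They made up 51.9% (314 rises and 291 falls) when each array was centred on its median, so the balance between directions depends on the scaling.

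The number of calls rested on single arrays, as the plot of counts with 1 array left out shows. Leaving out 0 h array 1, 2 or 3 gave 198, 264 and 1174 calls, and leaving out 3 h array 1, 2 or 3 gave 383, 374 and 195. With all arrays and the repeat number as a block in the model, 834 genes were called. A core of 91 rises and 39 falls was called with all arrays and whichever of the 6 was left out. A fit of the 6 arrays alone, with its own estimate of the spread, called 31 rises and 10 falls, and all 41 genes were among the 579.

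**Figure D1:**
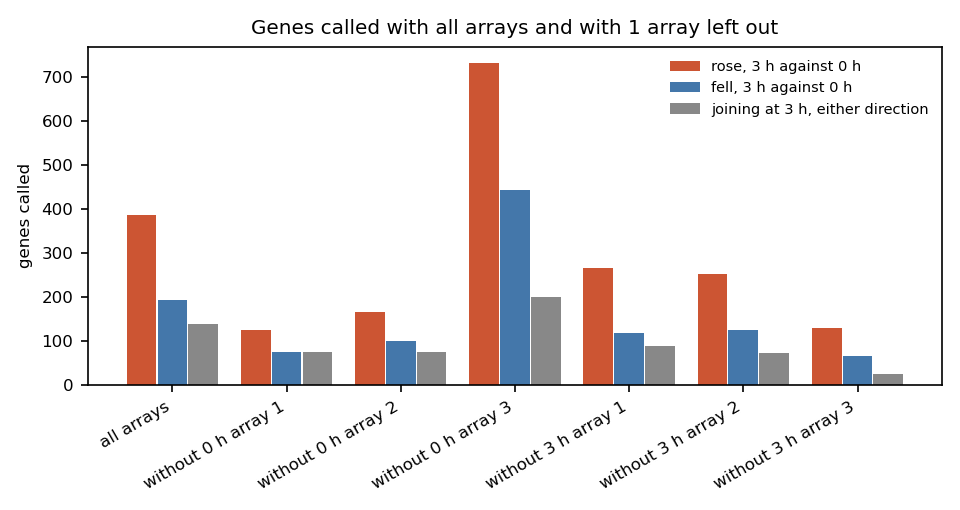
Number of genes called (bar height, from 0) with all arrays and with each of the 6 arrays of 0 h and 3 h left out in turn; orange bars are rises and blue bars falls against 0 h, and grey bars are genes that joined at 3 h as defined in the text. The count is highest without array 3 of 0 h (1174 genes) and the joining count lowest without array 3 of 3 h (23 genes).

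The calls were spread unevenly over expression level. Of 5517 genes in the dimmest of 3 equal groups by mean level, 6 rose and 28 fell. In the middle group 132 of 5517 rose and 78 fell, and in the brightest 248 of 5518 rose and 87 fell. Rises were 0.109% of the dim genes and 4.49% of the bright ones, while falls were 0.508% and 1.58%.

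**Figure D2:**
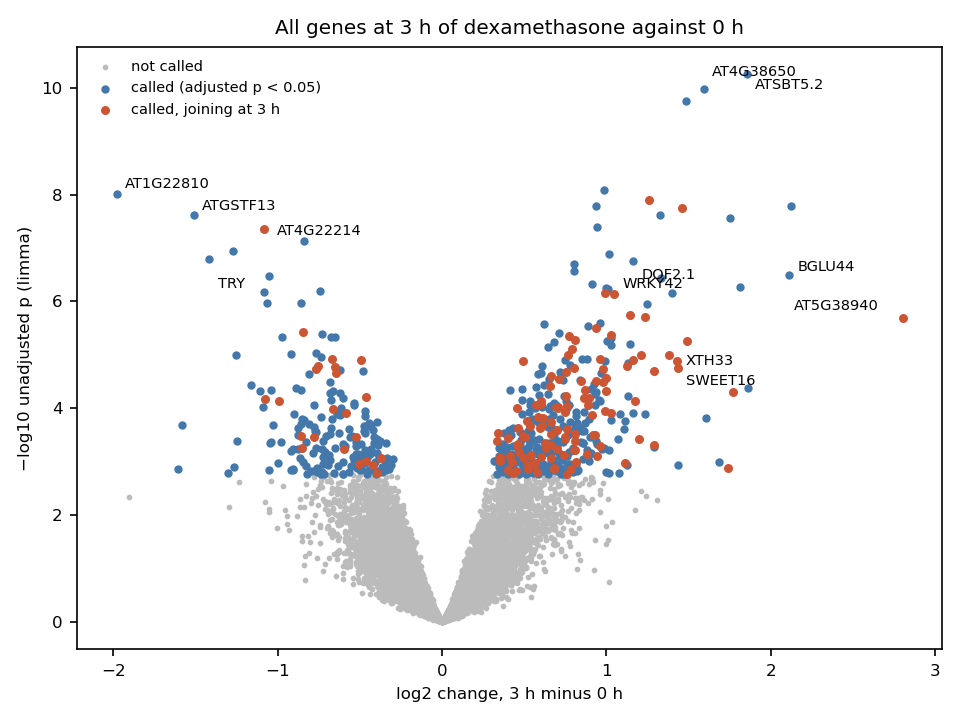
Each point is 1 of 16552 genes, with the log2 change from 0 h to 3 h on the horizontal axis and the negative log10 of the unadjusted limma p on the vertical axis. Blue points are called genes and orange points those that also joined at 3 h; AT5G38940 has the largest change, 2.80, and is a joining gene.

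The largest rise was that of the germin-like gene AT5G38940. Germin-like proteins are secreted proteins of the cell wall. The gene read 1.89, 3.38 and 3.16 on the 0 h arrays and 5.39, 5.82 and 5.63 on the 3 h arrays, with no overlap, and rose by 2.80 ± 0.43 (adjusted p = 0.000874). Next came AT1G54950, identified by its locus alone, which read 1.5, 1.05 and 1.23 at 0 h and 2.94, 3.72 and 3.50 at 3 h. AT1G54950 moved from the very bottom of the scale on all 3 arrays, by 2.12 ± 0.24 (adjusted p = 3.19e-05). BGLU44 (AT3G18080), a beta-glucosidase, read 2.79, 2.06 and 3.16 at 0 h and 5.16, 4.68 and 4.52 at 3 h and rose by 2.11 ± 0.28 (adjusted p = 0.000236).

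ATSBT5.2 (AT1G20160) encodes a subtilisin-like serine protease. It read 5.43, 5.72 and 5.87 at 0 h and 7.44, 7.50 and 7.64 at 3 h, and its rise of 1.85 ± 0.15 had an adjusted p of 8.52e-07. The arrays of each time lay close together and far from those of the other. The PLAC8 family gene AT3G18450 rose from 6.38, 6.23 and 6.83 to 8.08, 8.33 and 8.27, by 1.75 ± 0.20 (adjusted p = 3.78e-05). The bHLH gene AT5G51780 rose from 2.32, 3.13 and 2.50 to 4.48, 4.26 and 4.65, by 1.81 ± 0.25 (adjusted p = 0.000336). Neither gene's arrays overlapped between the times, which was a condition of their choice.

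Receptor kinases bind signals outside the cell and pass them on by phosphorylation. The receptor kinase gene AT4G20450 read 1.80, 2.08 and 3.27 at 0 h and 4.02, 4.11 and 4.60 at 3 h, a rise of 1.86 ± 0.36 (adjusted p = 0.00594). Its 0 h array 3 was higher than the other two but stayed below every 3 h array. AT1G05700 rose by 1.77 ± 0.35 (adjusted p = 0.00657), from between 3.70 and 4.38 to between 5.63 and 6.10.

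The other 4 of the 12 largest rises included 3 that were not robust to the arrays. AT5G59680, a second receptor kinase gene, rose by 1.74 (adjusted p = 0.0432), but its adjusted p was between 0.0777 and 0.218 without any one of 5 arrays (0 h arrays 1 and 2 and each 3 h array). MT1B (AT5G56795), a metallothionein, a small cysteine-rich protein that binds metals, rose by 1.68 (adjusted p = 0.0378). Its adjusted p was between 0.102 and 0.151 without 0 h array 1 or 2 or 3 h array 1 or 3. AT4G32950 rose by 1.61 (adjusted p = 0.013), which became 0.0898 without 0 h array 1, 0.0636 without 3 h array 1 and 0.0564 without 3 h array 3.

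AT4G38650, a gene of glycosyl hydrolase family 10, whose members cut xylan-type wall polymers, was the remaining one. It read 4.49, 4.82 and 4.39 at 0 h and 6.03, 6.13 and 6.32 at 3 h, and was 1.59 ± 0.13 above 0 h (adjusted p = 8.52e-07). This gene was already on its way down, since 3 h lay 0.95 below the mean of 0.5, 1 and 2 h (adjusted p = 4.94e-05). Its mean level went from 7.54 ± 0.04 (1 h) through 7.06 ± 0.10 (2 h) to 6.16 ± 0.15 (3 h; SD, n = 3).

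**Figure D3:**
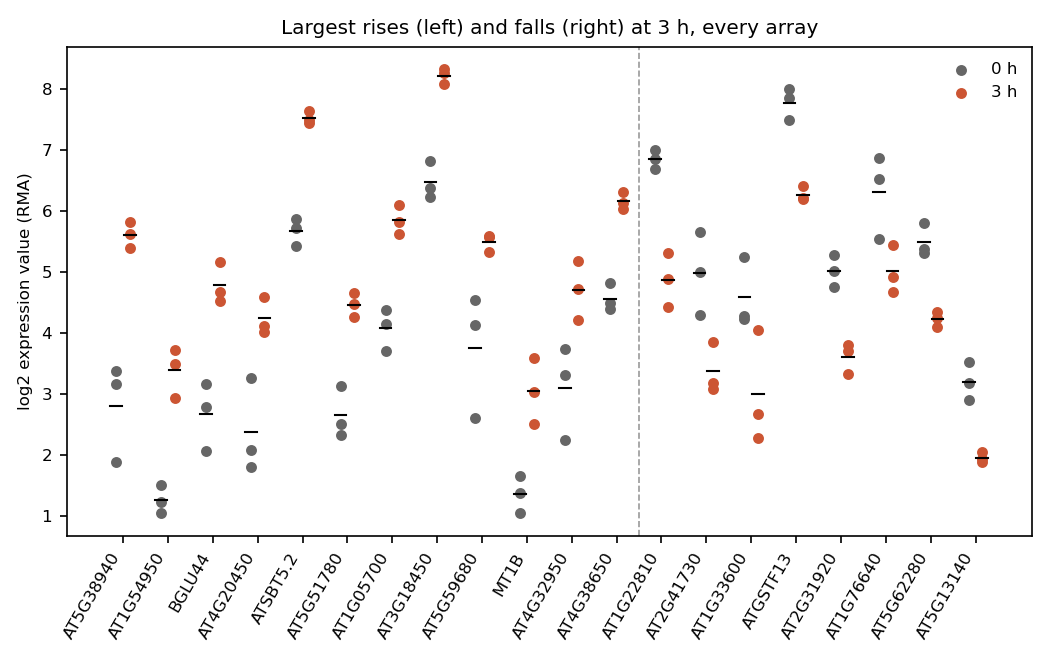
Log2 expression value on each of the 3 arrays at 0 h (grey) and 3 h (orange) for the 12 largest rises, left of the dashed line, and the 8 largest falls, right of it; bars are means of 3 arrays. These genes were picked for not overlapping, and AT1G76640 has the narrowest gap, between 5.45 at 3 h and 5.55 at 0 h.

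The AP2/ERF gene AT1G22810 fell most. It belongs to a large plant family of transcription factors that act in hormone and stress responses. It read 6.7, 7.0 and 6.86 at 0 h and 4.42, 5.31 and 4.89 at 3 h, and fell by 1.98 ± 0.21 (adjusted p = 3.19e-05). ATGSTF13 (AT3G62760), a glutathione S-transferase, read 8.00, 7.86 and 7.49 at 0 h and 6.21, 6.20 and 6.41 at 3 h. ATGSTF13 fell by 1.51 ± 0.17 (adjusted p = 3.6e-05), with every 3 h array more than 1 below every 0 h array.

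AT2G31920 fell by 1.41, AT5G62280 by 1.27 and AT5G13140 by 1.25, with adjusted p of 0.000145, 0.000118 and 0.00251, and these calls too held whichever array was left out. The other 3 of the 8 largest falls did not. AT2G41730 fell by 1.61 (adjusted p = 0.044), with adjusted p between 0.108 and 0.175 without 0 h array 1 or 3 or 3 h array 2 or 3. AT1G33600 fell by 1.58 (adjusted p = 0.0155), which became 0.102 without 0 h array 1, 0.0777 without 3 h array 1 and 0.0951 without 3 h array 3. AT1G76640, whose annotated name CML39 marks a calmodulin-like calcium sensor, fell by 1.3 (adjusted p = 0.0483), and its adjusted p was between 0.0716 and 0.207 without any array but array 3 of 0 h. In the fit of the 6 arrays alone, 13 of the 20 largest changes were called.

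Most calls at 3 h were absent at the earlier times: 317 rises and 141 falls were called at 3 h and not at 0.5, 1 or 2 h against 0 h. Being called at one time and not at another does not show a difference, so 3 h was tested against the mean of the 0.5, 1 and 2 h arrays, which leaves out the 0 h arrays. In that comparison 164 genes rose and 44 fell, or 1.26% of the genes tested (0.991% rising and 0.266% falling). The 208 calls became 107 and 43 without array 2 or 3 of 3 h, and 137 and 352 without array 1 or 3 of 2 h. Genes were taken to have joined at 3 h when they were called against 0 h, not called at 0.5, 1 or 2 h, and called in the same direction against those 3 times. That gave 114 joining rises and 23 joining falls, 0.828% of all genes.

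The joining set depended on array 3 of 3 h. It numbered 88, 71 and 23 genes when 3 h array 1, 2 or 3 was left out, and 73, 73 and 200 when 0 h array 1, 2 or 3 was. Without array 3 of 2 h it numbered 208, and with the repeat number as a block in the model 277. Of the 137 joining genes, 46 kept their call against 0 h and 21 their difference from the earlier times whichever 1 of the arrays compared was left out, and 16 kept both. Among joining genes named below, the differences of EXPA18, SWEET17, MT1C, UGT72E2, AT3G45710 and AT3G57020 from the earlier times were all lost without array 3 of 3 h, with adjusted p from 0.111 to 0.311. The part of the distance of array 3 of 3 h from the other arrays in these counts was not tested beyond these omissions.

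By construction the joining genes were flat at first and changed at 3 h. Choosing them by their 3 h arrays also favours smaller changes after 3 h. Their sizes are given as a description. The median change of the joining rises from 0 h was -0.01 at 0.5 h, 0.05 at 1 h and 0.25 at 2 h. It reached 0.76 at 3 h, with single genes between 0.34 and 2.80, and stood at 0.58, 0.61 and 0.64 in the 3 later hours. The joining falls had medians of 0.01, -0.08 and -0.28 at 0.5, 1 and 2 h, -0.65 at 3 h, and -0.51, -0.56 and -0.51 after it. The other 203 rises and 118 falls not called before 3 h had median changes of 0.35 and -0.36 at 2 h and of 0.66 and -0.60 at 3 h. These genes had missed the call against the earlier treated times, so their selection favoured a larger share of the change by 2 h. Their medians too are given as a description.

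AT5G38940 led the joining rises and kept both calls under every omission. Its means at 0, 0.5, 1 and 2 h were 2.81 ± 0.80, 2.48 ± 0.78, 3.44 ± 1.07 and 4.28 ± 0.40 (SD, n = 3), followed by 5.61 ± 0.22 at 3 h and 5.22 ± 0.22 at the end of the course. The 3 h level was 2.21 above the mean of the earlier treated times (adjusted p = 0.00222). The spread was wide up to 1 h and narrow from 3 h on. AT1G05700 was 1.89 above the same mean (adjusted p = 0.00144) and also kept both calls.

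XTH33 (AT1G10550) encodes a xyloglucan endotransglucosylase/hydrolase, an enzyme that cuts and rejoins the xyloglucan tethers between cellulose fibres. It read 3.87, 4.37 and 4.24 at 0 h and 5.37, 5.60 and 5.80 at 3 h, a rise of 1.43 ± 0.25 (adjusted p = 0.00285). No 3 h array overlapped with 0 h, and 3 h lay 1.54 above the earlier treated times (adjusted p = 0.000345), a difference that no single array decided. Its means at 0.5, 1 and 2 h were 3.54 ± 0.41, 3.86 ± 0.73 and 4.75 ± 0.15 (SD, n = 3).

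WRKY42 (AT4G04450) belongs to the WRKY family of transcription factors and is known for its part in phosphate nutrition. It read 5.42, 5.51 and 5.87 at 0 h and 6.4, 6.73 and 6.81 at 3 h, a rise of 1.05 ± 0.15 (adjusted p = 0.000365). Array 3 was the highest of the 0 h arrays, but stayed well below the lowest 3 h array. The gene was 0.84 above the earlier treated times (adjusted p = 0.000982), kept both calls under every omission, and held means of 6.61 ± 0.03, 6.63 ± 0.23 and 6.61 ± 0.16 at 4, 5 and 6 h (SD, n = 3).

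SWEET16 (AT3G16690) encodes a sugar carrier of the vacuolar membrane. It read 4.65, 5.36 and 5.43 at 0 h and 6.41, 6.61 and 6.73 at 3 h and rose by 1.43 ± 0.26 (adjusted p = 0.00349), a call that held under every omission. Its difference of 0.94 from the earlier treated times (adjusted p = 0.0291) was less firm. The adjusted p became 0.0501 without array 1 of 1 h and 0.056, 0.0981 and 0.233 without array 1, 2 or 3 of 3 h. GTR2 (AT5G62680), an importer of glucosinolates, read 7.53, 7.61 and 7.25 at 0 h and 7.89, 8.23 and 8.40 at 3 h, with array 1 the nearest to the 0 h arrays. Its rise of 0.71 ± 0.13 had an adjusted p of 0.00467, and its difference of 0.62 from the earlier treated times (adjusted p = 0.00524) was lost when 3 h array 3 was left out (adjusted p = 0.0996).

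AT4G11393, a defensin-like gene, was among the other joining rises that kept both calls. Defensin-like genes encode small secreted cysteine-rich peptides. It read 3.90, 2.89 and 3.44 at 0 h and 4.83, 5.16 and 4.72 at 3 h, 1.49 ± 0.24 higher (adjusted p = 0.00169). It went on upward, with means of 5.12 ± 0.16, 5.57 ± 0.30 and 5.55 ± 0.10 at 4, 5 and 6 h (SD, n = 3), although the later mean did not differ from 3 h by the test (adjusted p = 0.752). AT3G01730 (1.38) and AT5G49770 (1.29) rose with adjusted p of 0.00251 and 0.00365 and kept both calls as well. AT5G26320, the last of the 10 largest joining rises with AT5G59680, AT1G27020 and those above, rose by 1.29 (adjusted p = 0.0249), but its adjusted p was between 0.053 and 0.127 without any array but array 3 of 0 h.

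The largest joining fall was that of another defensin-like gene, AT4G22214. It read 6.04, 5.59 and 5.70 at 0 h and 4.51, 4.71 and 4.86 at 3 h, a fall of 1.08 ± 0.13 (adjusted p = 5.11e-05), with no overlap. It was 1.01 below the earlier treated times (adjusted p = 2.55e-05), and no single array decided either call. AT5G35940 read 7.15, 7.13 and 6.90 at 0 h and 6.24, 6.19 and 6.21 at 3 h and fell by 0.85 ± 0.14 (adjusted p = 0.00141). Its 3 h arrays lay close together. Its difference from the earlier treated times, -0.60 (adjusted p = 0.00838), was lost when 3 h array 3 was left out (adjusted p = 0.0741).

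AT5G04120 and AT3G14530 fell by 0.99 and 0.77, with adjusted p of 0.00834 and 0.00357, and kept these calls under every omission, but their differences from the earlier treated times did not. Those were -0.70 (adjusted p = 0.0345; 0.0543 to 0.159 without array 1 or 2 of 0.5 h, array 1 of 1 h, array 1 of 2 h or any array of 3 h) and -0.51 (adjusted p = 0.0287; 0.0502 to 0.291 without array 1 of 2 h or any array of 3 h). The remaining 4 of the 8 largest joining falls each lost the call against 0 h without 2 to 4 of the 6 arrays. AT1G71520 (-1.07) had an adjusted p up to 0.0574 without 0 h array 2 or 3 h array 3, and AT5G45920 (-0.78) up to 0.139 without 0 h array 1 or 3 h array 3. AT4G22217 (-0.85) had one up to 0.0961 without 0 h array 2 or 3 or 3 h array 1 or 2, and the methyltransferase gene FAMT (-0.86) up to 0.119 without 0 h array 2 or 3 h array 1 or 2.

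**Figure D4:**
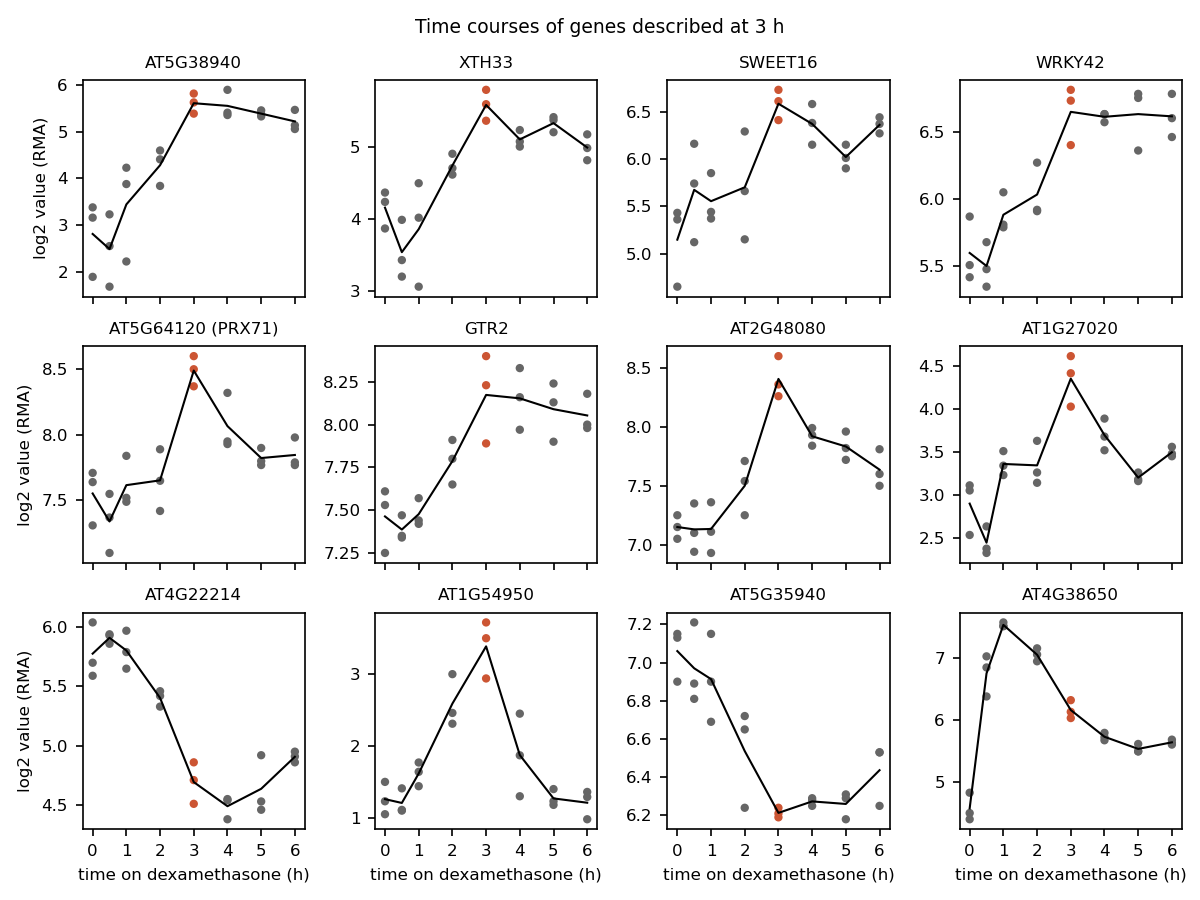
Log2 expression value on every array (points) and the mean of 3 arrays (line) against hours on dexamethasone for 12 genes described in the text; 3 h arrays are orange and vertical scales differ between panels. AT1G27020 and AT2G48080 peak at 3 h, WRKY42 stays at its 3 h level, and AT4G38650 peaks at 1 h and is already falling at 3 h.

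Few single genes were called between 2 h and 3 h. Against 2 h, 2 genes rose (0.0121% of those tested) and 1 fell (0.00604%), or 0.0181% in all, with 1463 genes at an unadjusted p under 0.05. A larger difference could miss the threshold, as in the joining gene AT5G38940, which stood 1.33 above 2 h (adjusted p = 0.419). These 3 were named after their values were seen. AT1G27020 read 4.42, 4.62 and 4.03 at 3 h and had a mean of 3.34 ± 0.26 (SD, n = 3) at 2 h, a rise of 1.01 (adjusted p = 0.0238). AT2G48080 read 8.36, 8.26 and 8.60 at 3 h after a mean of 7.50 ± 0.23 at 2 h, a rise of 0.91 (adjusted p = 0.0158). Both are joining genes, and AT4G38650, described above, fell by 0.90 (adjusted p = 0.0158). None was called when array 1 of 2 h or array 1 or 2 of 3 h was left out, where 914, 1462 and 1364 genes had an unadjusted p under 0.05. Without array 3 of 2 h 8 genes were called, and without array 3 of 0, 0.5, 1 and 2 h together 80.

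Levels reached at 3 h mostly did not differ by the test from those after it. Against 3 h, the mean of 4, 5 and 6 h was higher for 0 genes and lower for 5 (0.0302% of the genes tested), while 459 were higher and 497 lower at an unadjusted p under 0.05. The 5 were again named after their values were seen. AT1G54950 had the most marked peak, with means of 1.26 ± 0.23, 2.59 ± 0.36, 3.39 ± 0.40, 1.87 ± 0.58 and 1.21 ± 0.20 (SD, n = 3) for 0, 2, 3, 4 and 6 h. It fell by 1.94 after 3 h (adjusted p = 4.27e-05). AT1G27020 fell by 0.89 (adjusted p = 0.00816), AT5G48430 by 0.84 (adjusted p = 0.0442) and AT5G40590, which was not called at 3 h against 0 h (0.32, adjusted p = 0.281), by 0.93 (adjusted p = 0.00248).

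EXPA15 (AT2G03090), an expansin, was the last of the 5, with means of 6.46 ± 0.20 at 3 h and 6.03 ± 0.07, 6.03 ± 0.10 and 5.83 ± 0.12 at 4, 5 and 6 h. It fell by 0.50 after 3 h (adjusted p = 0.0442). The count of 5 became 3 when array 1 of 3 h, array 1 or 3 of 4 h, any array of 5 h, or array 1 or 3 of 6 h was left out. It became 2 without 3 h array 2 and 8 without 6 h array 2.

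Gene classes were taken from words in the annotated symbols and synonyms, and only 1764 of the 16552 genes had a symbol beyond their locus. Of 702 genes in an annotated class, 36 rose (5.13%) and 12 fell (1.71%), against 2.33% and 1.17% of all genes. All genes are an unlike background, since most have no symbol. Of the 1764 genes with a symbol 89 were called, and of the 702 class genes 48. Calls also varied with expression level, for which the class genes were not matched. Members of 1 class share names and not cells, and the calls in most classes rested on 1 to 4 genes. The median change over all genes was -0.03. The genes above with a family name but no symbol, such as AT5G38940, were left out of these counts because they were named with their changes known. Genes whose symbol and synonyms do not name their family are outside the counts too. No count therefore describes a whole family. Of the 114 joining rises 14 had a symbol beyond their locus, and of the 23 joining falls 4. Most joining genes may thus belong to these classes without being counted, and the counts do not show which families joined most.

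Cell wall genes come first. Expansins loosen the contact between wall polymers during growth, and 4 of 24 rose with 0 falling, 1 of the 4 joining, at a class median of 0.06. EXPA15 read 5.98, 5.76 and 5.88 at 0 h and 6.59, 6.55 and 6.23 at 3 h, and its rise of 0.58 (adjusted p = 0.00383) held under every omission. EXPA8 (AT2G40610) rose by 0.95 (adjusted p = 0.00814; 0.0517 without 0 h array 2). EXPA18 and EXPA7, expansins of growing root hairs, are given with the cell type markers below. Among the 20 not called, EXPB2 had a change of -0.43 (adjusted p = 0.147).

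Of 10 xyloglucan endotransglucosylases, XTH33 alone was called, 8 had a change above 0, and the median was 0.25 (0.19 after median centring and 0.22 after a second quantile normalization). The nearest that missed the threshold was XTH32, at 0.66 (adjusted p = 0.0614). Class III peroxidases are secreted enzymes that crosslink wall phenolics or make reactive oxygen. The 8 genes annotated by such a name had 2 rises, 1 of them joining, and a median of 0.23. Peroxidase genes without such a name were not counted, so how many of the family joined is not given by these counts. AT5G64120, annotated also as PRX71, read 7.71, 7.31 and 7.64 at 0 h and 8.37, 8.60 and 8.50 at 3 h. AT5G64120 rose by 0.94 ± 0.15 (adjusted p = 0.00119) and joined at 3 h, 0.96 above the earlier treated times (adjusted p = 0.000206), with both calls kept under every omission.

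AT5G64120 then went back, to a mean of 8.06 ± 0.22 at 4 h and 7.82 ± 0.07 at 5 h (SD, n = 3), a difference of -0.58 from 3 h over the 3 later times that missed the threshold (adjusted p = 0.0999). The second called peroxidase was AT5G66390 (PRX72), known for its part in lignin formation, with a rise of 0.72 (adjusted p = 0.0322). Its adjusted p was between 0.0589 and 0.194 without any array but array 3 of 0 h. AT2G38380, a peroxidase gene outside the count, read 5.33, 5.75 and 5.77 at 0 h and 6.77, 6.71 and 7.08 at 3 h, a rise of 1.24 ± 0.19 (adjusted p = 0.000861) that held under every omission. It also joined, but its difference from the earlier treated times (0.77, adjusted p = 0.0143) was lost when 3 h array 3 was left out (adjusted p = 0.184).

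Laccases oxidise the alcohols that form lignin. AT5G01050, annotated also as LAC9, read 2.15, 2.16 and 2.32 at 0 h and 3.14, 3.35 and 2.93 at 3 h, rising by 0.93 ± 0.18 (adjusted p = 0.00542) under every omission, and LAC16, the only other one measured, was at 0.60 (adjusted p = 0.311). Among 45 glycosyl hydrolases and beta-glucosidases, BGLU44 and BGLU15 rose and GH9C3 fell. GH9C3 (AT4G11050), an endoglucanase gene, read 8.05, 8.09 and 8.05 at 0 h and 7.44, 7.61 and 7.19 at 3 h, a fall of 0.65 ± 0.11 (adjusted p = 0.0015) that held under every omission. BGLU15 rose by 0.60 (adjusted p = 0.0399; 0.0751 to 0.215 without 0 h array 1 or 2 or 3 h array 2 or 3).

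Of 4 pectin methylesterases and their inhibitors, PMEPCRF rose by 0.67 (adjusted p = 0.0165; 0.109 without 0 h array 1 or 3 h array 3), while ATPMEPCRB was at -1.07 (adjusted p = 0.093). The pectin lyase-like genes AT2G43870 and AT3G59850 stood 0.53 and 0.40 above 0 h (adjusted p = 0.0185 and 0.0494). Neither call held, with adjusted p up to 0.09 without array 1 of 0 h or array 1 or 2 of 3 h for AT2G43870, and up to 0.184 without any array but array 3 of 3 h for AT3G59850. Both were below their earlier treated level, by -0.45 (adjusted p = 0.0285) and -0.37 (adjusted p = 0.0467). None of the 12 cellulose synthases and related genes or the 7 extensins and proline-rich proteins annotated by name was called by limma. In each of these classes 2 were higher at an unadjusted p under 0.05, and the medians were 0.12 and 0.19. Genes of these families without such a name were not counted and may include called ones.

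Transcription factors gave few calls. Of 7 WRKY genes WRKY42 rose and WRKY22, which acts in immune signalling, fell by 1.03 (adjusted p = 0.0157; 0.068 to 0.104 without 0 h array 1 or 3 h array 1 or 3). Of 3 MYB genes TRY fell and MYBC1 rose. TRY (AT5G53200), a small repressor that patterns hair cells in the epidermis, read 4.17, 4.12 and 4.19 at 0 h and 3.33, 2.87 and 3.03 at 3 h, a fall of 1.09 ± 0.15 (adjusted p = 0.000359) under every omission. It had reached a mean of 3.12 ± 0.23 (SD, n = 3) by 2 h. MYBC1 (AT2G40970) read 4.44, 4.73 and 4.82 at 0 h and 5.67, 5.50 and 5.78 at 3 h, a rise of 0.99 ± 0.11 (adjusted p = 3.19e-05), and had been at 5.83 ± 0.05 at 0.5 h.

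The bHLH class had 1 rise among 10, AT1G72210, at 0.61 (adjusted p = 0.0396; 0.068 to 0.212 without 0 h array 1 or 2 or 3 h array 1 or 3). AT5G51790, the bHLH gene beside AT5G51780, is outside that count and rose from 3.08, 3.42 and 3.20 to 4.06, 4.18 and 4.54, by 1.03 ± 0.17 (adjusted p = 0.00183). SACL2 (AT5G50010), a bHLH gene related to SAC51, whose relatives compete with TMO5 for LHW, rose from 4.98, 5.02 and 5.27 to 5.57, 5.67 and 5.86, by 0.61 ± 0.11 (adjusted p = 0.00329). For both genes the times did not overlap and the call held under every omission. SACL1, its relative, was at 0.34 (adjusted p = 0.0672).

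The AP2/ERF gene tny rose by 0.93 (adjusted p = 0.00686; 0.0588 without 3 h array 3), 1 of 4 in its class. Of 25 bZIP genes, bZIP19, a zinc sensor and activator of zinc uptake genes, rose by 0.52 (adjusted p = 0.0219; 0.0963 without 0 h array 1, 0.115 without 0 h array 2 and 0.121 without 3 h array 3). Of 66 MADS genes, 0 rose and AGL67 and AGL26 fell, by 0.47 (adjusted p = 0.038) and 0.39 (adjusted p = 0.0253). Both calls were lost without 0 h array 1 or 2 or 3 h array 3, and also without 3 h array 2 for AGL67 and 3 h array 1 for AGL26, with adjusted p up to 0.134 and 0.125. The MADS class had 4 genes higher and 5 lower at an unadjusted p under 0.05.

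Hormone classes each gave 1 call at most. In the auxin class of 19 genes GH3.17 (AT1G28130), which joins auxin to glutamate and so takes it out of use, read 6.22, 5.97 and 6.27 at 0 h and 7.03, 6.86 and 6.97 at 3 h. Its rise of 0.80 ± 0.11 (adjusted p = 0.000213) held under every omission. The class median was -0.05. In the cytokinin class of 8 genes ARR15 (AT1G74890), a type-A response regulator that cytokinin induces and that damps the response, rose by 1.07 (adjusted p = 0.022). It read 2.15, 1.99 and 1.84 at 0 h and 3.39, 3.17 and 2.63 at 3 h, with no overlap, but its adjusted p was between 0.0543 and 0.0909 without 0 h array 1 or 2 or 3 h array 1 or 2.

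GID1B, a gibberellin receptor, rose by 0.50 (adjusted p = 0.0435; 0.0859 to 0.218 without any array but array 2 of 3 h), and the other 2 receptors measured, GID1A and GID1C, were at 0.23 and 0.10. No gene of the ethylene, jasmonate or brassinosteroid classes, with 2, 3 and 3 genes, was called by limma. At an unadjusted p under 0.05, 1 jasmonate gene was higher and 1 lower. Of 2 leucine-rich repeat kinases annotated by name, 0 were called by limma, with 0 higher and 1 lower at an unadjusted p under 0.05. The receptor kinase genes AT4G20450 and AT5G59680 lie outside that count, as do any others without such a name. How many kinase genes joined was therefore not counted.

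Small secreted peptides moved little as annotated classes. These leave out the defensin-like genes AT4G11393 and AT4G22214 described above, and any others whose symbol and synonyms do not name their family. Of 73 annotated defensin-like genes 0 rose and PDF2.5 (AT5G63660), a plant defensin, fell. It read 9.02, 9.03 and 8.75 at 0 h and 8.22, 8.14 and 8.21 at 3 h, a fall of 0.74 ± 0.10 (adjusted p = 0.000359) under every omission. The class median was -0.11, with 2 genes higher and 7 lower at an unadjusted p under 0.05. Of 18 RALF genes, for peptides that alter wall and pH at the cell surface, RALFL27 rose by 0.84 (adjusted p = 0.0166; 0.0538 to 0.0914 without 0 h array 1 or 2 or 3 h array 2 or 3). None of 16 CLE peptide genes was called, with 0 higher and 3 lower at an unadjusted p under 0.05.

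Transporter genes with a symbol or a supplied family name included 2 further joining genes beside SWEET16 and GTR2. SWEET17 (AT4G15920), a fructose carrier of the vacuolar membrane, read 4.43, 4.21 and 4.71 at 0 h and 4.97, 5.01 and 5.18 at 3 h. SWEET17 rose by 0.60 (adjusted p = 0.033), which was between 0.058 and 0.155 without any array but array 3 of 0 h. The SWEET and sugar transporter class had 2 rises among 19 genes, both of them vacuolar SWEETs, and a median near 0. Among those not called, SWEET1 was at -0.67 (adjusted p = 0.14) and SWEET2 at 0.25 (adjusted p = 0.436).

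Of 14 nitrate and peptide transporters 3 rose and 1 fell, and the median was 0.14. Beside GTR2, NAXT1, which exports nitrate from root cells, rose by 0.90 (adjusted p = 0.0307; 0.0538 to 0.181 without any array but array 3 of 0 h). AT1G33440 rose by 0.66 (adjusted p = 0.00924; 0.0524 without 3 h array 2 and 0.0718 without 3 h array 3). AT3G21670 fell by 0.88 (adjusted p = 0.0167; 0.0597 to 0.0808 without 0 h array 1 or 3 h array 1 or 2). AT3G45710, of the same family but outside the count, was the other joining transporter, with a rise of 0.93 (adjusted p = 0.0198; 0.0535 to 0.123 without 0 h array 1 or 2 or 3 h array 2 or 3).

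Metal handling gave calls in 2 small classes. ZIP6, a member of the zinc and iron transporter family, rose by 0.78 (adjusted p = 0.0393; 0.0517 to 0.221 without any array but array 3 of 0 h), 1 of 5 metal transporters. Both metallothioneins measured rose, MT1B as given above and MT1C (AT1G07610) by 0.75 (adjusted p = 0.031), from 8.39, 8.48 and 8.71 to 9.07, 9.18 and 9.57. MT1C joined at 3 h and did not overlap with 0 h, and its adjusted p was between 0.0567 and 0.178 without 0 h array 1 or 2 or 3 h array 2 or 3. The near-identical copies of this family may share probe signal.

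Metabolic enzymes moved gene by gene. Of 55 UDP-glycosyltransferases, which attach sugars to hormones and phenolics, 4 rose and 0 fell, with a median of 0.02 that turned to -0.04 after median centring. These were UGT78D2, a flavonol glycosyltransferase (0.68, adjusted p = 0.0188), UGT71D1 (0.65, adjusted p = 0.0494), UGT72E2 (0.52, adjusted p = 0.044), which glycosylates lignin alcohols and joined at 3 h, and UGT85A2 (0.43, adjusted p = 0.0165). No one of these 4 calls held under every omission, with adjusted p up to 0.0951, 0.264, 0.199 and 0.078. They were lost without 0 h array 1 or 2 for all 4, without 3 h array 1 or 3 for all but UGT85A2, without 3 h array 2 for all but UGT78D2, and without 0 h array 3 for UGT72E2. After median centring 2 of the class rose and 1 fell.

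HCT, an acyltransferase of the lignin pathway, rose by 0.39 (adjusted p = 0.0393; 0.0944 to 0.213 without 0 h array 1 or 2 or 3 h array 2 or 3). The acyltransferase genes AT3G50300 and AT5G39080 lie outside that class count and rose by 1.40 ± 0.20 (adjusted p = 0.000359) and 1.14 ± 0.19 (adjusted p = 0.00178), under every omission. AT3G50300 read 3.61, 3.67 and 4.39 at 0 h and 5.42, 5.19 and 5.25 at 3 h, and AT5G39080 read 2.96, 3.61 and 3.03 and then 4.28, 4.41 and 4.33. Neither overlapped between times.

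MSRB4, which repairs oxidised methionine, rose by 0.77 (adjusted p = 0.0294; 0.0708 to 0.146 without 0 h array 1 or 2 or 3 h array 2 or 3), 1 of 7 in its class. ATGSTF13 was the one call among 14 glutathione S-transferases, and the class median lay on the other side, at 0.11. No gene of 26 cytochromes P450, 7 thioredoxins or 6 glutaredoxins was called by limma. At an unadjusted p under 0.05, 3 P450 genes were higher and 2 lower, 1 thioredoxin was higher, and 1 glutaredoxin was higher and 1 lower.

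Among proteases ATSBT5.2 was the one call of 8 subtilases, whose median was -0.05. AT3G51330, an aspartyl protease gene, read 9.0, 9.27 and 9.74 at 0 h and 10.08, 10.17 and 10.29 at 3 h, a rise of 0.84 ± 0.16 (adjusted p = 0.00484) under every omission. It joined at 3 h, 0.67 above the earlier treated times (adjusted p = 0.0116; 0.0508 without 3 h array 2 and 0.125 without 3 h array 3). AT3G57020, a strictosidine synthase-like gene, joined too, with a rise of 0.75 (adjusted p = 0.011; 0.0804 without 0 h array 1 and 0.0812 without 3 h array 3). The ascorbate oxidase family gene AT4G39830 fell by 1.05 ± 0.14 (adjusted p = 0.000236), from between 4.17 and 4.57 to between 3.02 and 3.71, and had been at 3.21 ± 0.13 (SD, n = 3) at 0.5 h.

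Growth and division classes, which hold only genes annotated by such a name, gave 1 call. Of the 3 kinesins in the class, motor proteins that move along microtubules, KICP-02 fell by 0.64 (adjusted p = 0.0116; 0.0696 without 0 h array 2). None of 7 tubulins, 8 histones, 14 ribosomal proteins or 3 DNA replication genes was called by limma. At an unadjusted p under 0.05, 1 tubulin was higher, and 2 histones, 4 ribosomal proteins and 1 replication gene were lower. The ribosomal protein median was -0.17 (-0.22 after median centring and -0.16 after a second quantile normalization), with 0 of 14 above 0. The class includes organelle genes such as rpl36 and rps16.

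**Figure D5:**
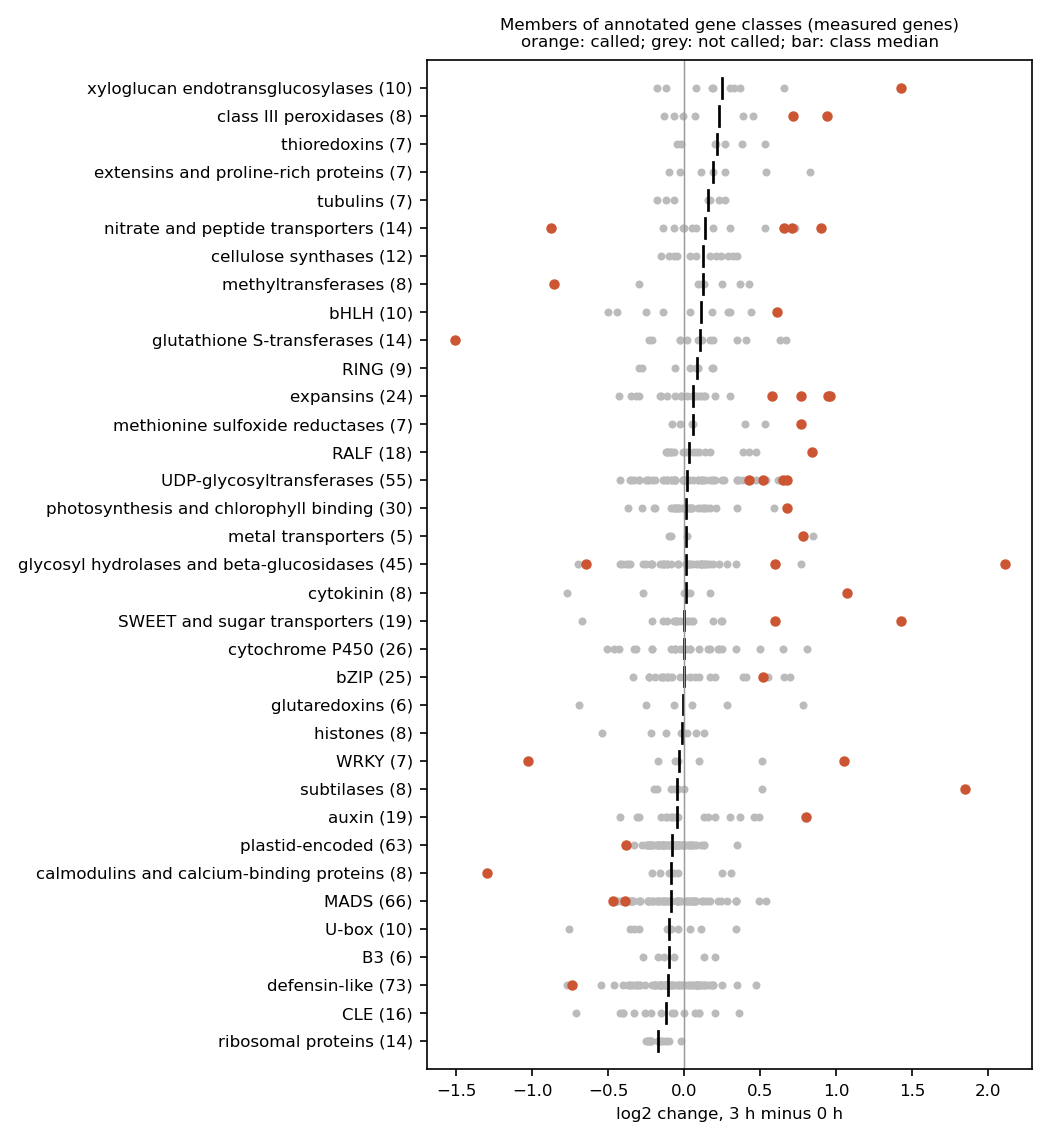
Log2 change from 0 h to 3 h of every measured gene in the 35 annotated classes with at least 5 genes, the number measured in brackets; orange points were called, grey points were not, and black bars are class medians. Called genes are few in every class, and most class medians lie within 0.2 of 0.

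Genes that lie next to each other on a chromosome and were both called in the same direction formed 17 pairs and no longer run. Of 10361 adjacent measured pairs, both members rose in 11 (0.106%), both fell in 6 (0.0579%) and they went opposite ways in 5. Of 483 neighbours of rising genes 22 rose (4.55%), against 2.33% of all genes, and of 248 neighbours of falling genes 12 fell (4.84%), against 1.17%. Neighbours can be near-identical copies that share probe signal, so these pairs are not independent.

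The pairs include joining genes. AT2G38390, beside the peroxidase gene AT2G38380, rose by 0.89 (adjusted p = 0.00783) and joined as well. It read 1.57, 1.08 and 1.13 at 0 h and 2.08, 1.98 and 2.39 at 3 h, near the bottom of the scale. Neither its call against 0 h nor its difference from the earlier treated times held under every omission. AT4G22217 and AT4G22214 are neighbours and both are joining falls. AT1G51860 rose by 0.96 (adjusted p = 0.00283) and its neighbour AT1G51870 by 1.02 (adjusted p = 0.0279), and AT1G51830 and AT1G51840, close by, rose by 1.03 and 0.82 (adjusted p = 0.0113 and 0.0453). The joining gene AT1G51860 kept its call against 0 h under every omission but not its difference from the earlier treated times. AT1G51830, also a joining gene, kept neither. AT5G62330 and AT5G62340 fell by 1.09 and 0.49 (adjusted p = 0.00946 and 0.00284). AT5G62340 joined, but only its call against 0 h held under every omission.

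Markers of root cell types were looked up to check the labelled tissue. Meristem genes were present: the Aurora kinase genes AUR1 and AUR2, which act in mitosis, and BBM read 7.72 ± 0.13, 5.11 ± 0.12 and 5.2 ± 0.36 at 0 h (SD, n = 3). Their changes at 3 h were 0.22, 0.43 and -0.27, with adjusted p of 0.284, 0.251 and 0.502. The 2 root hair markers measured, of 13 listed, both rose. EXPA18 (AT1G62980) read 6.29, 6.37 and 7.0 at 0 h and 7.48, 7.43 and 7.65 at 3 h, 0.96 higher (adjusted p = 0.026), and joined at 3 h. EXPA7 (AT1G12560) read 7.73, 7.88 and 8.51 and then 8.69, 8.57 and 9.17, 0.77 higher (adjusted p = 0.0415).

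Array 3 was the highest of each time for both root hair genes. The adjusted p of EXPA18 was between 0.0528 and 0.13 without any array but array 3 of 0 h, and that of EXPA7 between 0.0679 and 0.219 without 0 h array 1 or 2 or 3 h array 1 or 3. The mean over the pair ranged from 7.01 to 7.75 over the 0 h arrays and from 8.00 to 8.41 over the 3 h arrays. Whether the share of hair-bearing tissue differed between the harvests was not tested.

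No marker was called among 2 cortex, 2 phloem and 2 pericycle genes, and no endodermis, xylem or root cap marker was measured. The phloem genes OPS and CLE45 were at 0.47 and 0.20 (adjusted p = 0.259 and 0.668), and the lateral root gene LBD16 at 0.34 (adjusted p = 0.44). RCA, Rubisco activase, the one shoot marker measured of 11 listed, read 4.49, 4.65 and 4.50 at 0 h and 5.18, 4.98 and 5.53 at 3 h, a rise of 0.68 (adjusted p = 0.00884; 0.0724 without 3 h array 3). It was the one call among 30 photosynthesis and chlorophyll-binding genes, whose median was 0.01, and LHB1B2 was at 0.59 (adjusted p = 0.0699). Of 63 genes encoded in the plastid, 1 fell, rpoC2 of the plastid RNA polymerase, by 0.38 (adjusted p = 0.0232; 0.0594 to 0.118 without 0 h array 1 or 2 or 3 h array 2 or 3), and the median was -0.08.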

How the data were processed

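RNA of root meristems was hybridised to Affymetrix whole-transcript arrays (100 ng of RNA, per the labels' protocols). The deposited log2 values come from RMA, per the submitters' processing notes, a method that forces arrays to similar distributions and can hide a shift of most genes. The software version and the genome build were not given in the sources used here. Detection calls were not used. Precision is limited by how many arrays there are.

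Of 38408 probe sets, the platform annotation pairs 16746 with 1 gene and 758 with several, and 20904 are unnamed here. Averaging those with 1 gene gave 16552 genes, 165 of them with several, and symbols came from the TAIR10.1 RefSeq table, which 16697 probe sets matched. Family names of 29 genes came with the series description.

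With limma 3.58.1 (lmFit, eBayes; R 4.3.3) a linear model of 8 time means was fitted over the 24 arrays. The threshold was a Benjamini-Hochberg adjusted p of 0.05 over all genes. On simulated data for 3 h against 0 h, with 200 of 16552 genes changed in 5 draws, it recovered 31.94% of changes of 0.5, 86.27% of 1 and 100% of 2, and 4.1% of calls were false. The simulated arrays were alike in spread, which the real ones are not. They also held no shift with the repeat number, which the real ones at 0 to 3 h did. The share of 4.1% therefore need not hold for the real calls.

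The rule for named genes took LHW and DOF2.1, then among calls without overlap of arrays the 12 largest rises and the 8 largest falls, the 10 largest joining rises and 8 largest joining falls, and per class up to 4 called and 2 not called, of which the text gives part. The genes with supplied family names, the neighbouring pairs and the genes called against 2 h or after 3 h were added with their values seen. Members, classes and lists were chosen with earlier results of these data known. The alternatives changed the variance model (trend and robust, or array weights), the scaling (median centring, or quantiles once more), the genes (without the dimmest 25%, by brightest probe set, or all probe sets), and the arrays (repeat number as a block, the compared arrays alone, 0.5 h as reference, or arrays left out); a change of at least 1 was also required. Promoter sequences were not analysed here.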

Additional observations from a re-analysis of the deposited data

Results flagged for a closer look

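Among the 20904 probe sets with no gene name here, 460 were called at 3 h against 0 h in a fit of all probe sets, or 2.2%, with 322 rises and 138 falls. They are outside the comparisons above, which use named genes. A difference between 3 h and a neighbouring treated time was called for 7 genes. Against 2 h, AT1G27020 was at 1.01, AT2G48080 at 0.91 and AT4G38650 at -0.90. In the mean of 4, 5 and 6 h against 3 h, AT1G27020 was at -0.89, AT1G54950 at -1.94, EXPA15 at -0.50, AT5G40590 at -0.93 and AT5G48430 at -0.84. These 8 differences were tested directly by limma over all genes.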

How the results depend on the processing

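Counts are genes called at 3 h against 0 h (579), against the mean of 0.5, 1 and 2 h (208), against 2 h (3), and in 4 to 6 h against 3 h (5), with 137 joining genes. All probe sets gave 921, 377, 6 and 3. The compared arrays alone gave 41, 67, 0 (with 1371 genes at an unadjusted p under 0.05) and 6. Leaving out array 3 of 0, 0.5, 1 and 2 h together, a choice made with these data known, gave 1328, 770, 80 and 9, with 518 joining. A change of at least 1 was met by 82, 23, 1 and 1. The trend and robust variance model gave 814, 429, 8 and 20, array weights 417, 346, 5 and 20, and no dim genes 702, 307, 5 and 10. Median centring gave 605, 210, 4 and 9, with 126 joining. With 1 array left out the ranges were 195 to 1174, 43 to 352, 0 to 8 and 2 to 8, with 23 to 208 joining. With the repeat number as a block they were 834, 424, 10 and 8, with 277 joining (the alternatives for joining genes were added after the data were seen). The numbers were not taken to pair the arrays, since not every correlation of deviations with the same-numbered array of 3 h was over 0.1 (0.0562, 0.0117 and 0.12 for repeats 1, 2 and 3 of 0 h). Repeat 3 was over it at 0.5, 1 and 2 h too (0.113, 0.107 and 0.122), and at 0 to 2 h each array correlated more with its own number than, on average, with the others. With 0.5 h in place of 0 h as the reference, 244 genes were called. AT4G38650 then stood at -0.589, AT2G43870 at -0.541, AT3G59850 at -0.216, AT1G72210 at -0.188, MYBC1 at -0.177, SACL2 at -0.171, GID1B at -0.105 and AT4G39830 at 0.09, opposite to their changes from 0 h, as these genes had already moved by 0.5 h in the same direction. Changes under 0.5 are mostly below what 3 arrays a time can call.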
